A study of Mus musculus with 27 samples.

Results

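Peaks of H3K4me1 in fetal hematopoietic stem cells (HSC) were compared with those in fetal hematopoietic progenitor cells (HPC) of the mouse, to find which sites were called in 1 cell type only and at which genes they lay. A site was a peak interval of the authors' list, and it was shared when it overlapped an interval of the other cell type's list by 1 bp or more. Of 231188 fetal HSC sites, 58521 met no HPC site and are called HSC-only, and 172667 were shared. Of 177310 fetal HPC sites, 43000 met no HSC site and are called HPC-only, and 134310 were shared. These 408498 intervals were part of the 901169 intervals in the peak lists of the series.

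Fetal cells were taken at E16.5 (embryonic) and adult cells at 8 weeks of age, all on the B6 strain background, with no mutation or treatment given in the labels. Chromatin of sorted, fixed cells was bound by an antibody and tagged with the Tn5 transposase (ChIPmentation). The fetal HSC list pooled 3 libraries and the fetal HPC list 3, and adult HSC (4 libraries) and adult HPC (3 libraries) H3K4me1 lists served as readouts that the overlap had not used. The same held for fetal HPC H3K27ac (3 libraries) and for a further fetal HPC set of 2 libraries whose labels disagree on the mark (H3K27me3 in the titles, H3K27ac in another field), called the second K27 set here. The organ of origin, the sort gates and the number of animals behind a library are unstated in the labels. Because each list was called on pooled libraries, no spread between replicates could be measured, no test across samples was possible, and every interval below is a 95% Wilson interval of a share that covers counting error only.

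H3K4me1 is placed on the histone H3 tails of enhancers and of the flanks of promoters, often before an enhancer becomes active, so its map shows regulatory DNA in use or primed for use. Active enhancers and promoters also carry H3K27ac, and Polycomb places H3K27me3 on silent developmental genes. HSC renew themselves and give rise to all blood lineages, and HPC are their dividing offspring, which have begun to favour myeloid, lymphoid or erythroid fates.

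Promoters show the comparison at the level of sequence. Of 32851 promoter windows from RefSeq (GRCm38.p6, 250 bases before to 50 after a start, 27025 genes, no genome being used here for sequence elsewhere), 4315 held peaks of both cell types, 595 held an HSC-only site and no HPC peak, 609 held an HPC-only site and no HSC peak, and 25899 held neither. The other 1433 held a shared site of 1 list whose partner lay outside the window. A pair of windows from each class is printed, taken after their values were seen from those with the strongest sites. Capitals mark every match on either strand to AGATAA (the core bound by GATA factors), TGTGGT (RUNX factors) or GAGGAA (PU.1 and other ETS factors). The windows of Sox6, a transcription factor gene, and Cd63, a tetraspanin gene, held an HSC-only site. The windows of Tlr13, a Toll-like receptor gene, and Nkg7, a granule protein gene of cytotoxic cells, held an HPC-only site. Their positions are chr7:115824661-115824960 (minus strand, Sox6), chr10:128909095-128909394 (plus strand, Cd63), chrX:106143025-106143324 (plus strand, Tlr13) and chr7:43436888-43437187 (plus strand, Nkg7).
Sox6: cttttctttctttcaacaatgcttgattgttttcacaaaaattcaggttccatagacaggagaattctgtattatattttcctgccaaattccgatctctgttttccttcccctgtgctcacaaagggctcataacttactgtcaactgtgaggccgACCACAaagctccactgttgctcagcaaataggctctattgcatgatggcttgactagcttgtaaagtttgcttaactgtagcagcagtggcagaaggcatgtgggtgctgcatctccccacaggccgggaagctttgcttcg
Cd63: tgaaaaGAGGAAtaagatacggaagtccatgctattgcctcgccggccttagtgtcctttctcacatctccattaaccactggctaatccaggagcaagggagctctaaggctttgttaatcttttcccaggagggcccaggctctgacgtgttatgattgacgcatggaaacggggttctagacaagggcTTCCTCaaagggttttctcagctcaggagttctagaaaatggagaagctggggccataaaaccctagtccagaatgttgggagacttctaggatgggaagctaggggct
Tlr13: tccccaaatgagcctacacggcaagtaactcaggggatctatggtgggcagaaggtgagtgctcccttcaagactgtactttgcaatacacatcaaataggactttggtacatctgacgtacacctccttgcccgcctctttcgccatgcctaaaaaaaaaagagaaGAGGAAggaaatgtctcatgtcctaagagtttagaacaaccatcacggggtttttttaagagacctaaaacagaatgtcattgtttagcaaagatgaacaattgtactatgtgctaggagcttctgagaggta
Nkg7: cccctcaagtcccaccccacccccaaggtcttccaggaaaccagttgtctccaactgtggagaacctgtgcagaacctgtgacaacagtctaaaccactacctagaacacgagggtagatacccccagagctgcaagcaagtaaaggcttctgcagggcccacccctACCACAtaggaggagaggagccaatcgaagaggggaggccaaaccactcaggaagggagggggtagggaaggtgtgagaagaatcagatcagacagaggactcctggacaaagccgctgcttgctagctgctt

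The site at Sox6 was also called in adult HSC and not in adult HPC, and the site at Tlr13 in adult HPC and not in adult HSC, whereas those at Cd63 and Nkg7 were called in both adult cell types. The intervals of the HSC-only and HPC-only windows overlapped for each of the 3 cores. AGATAA stood in 14.5% (11.9% to 17.5%) of the 595 HSC-only windows, 11.0% (8.76% to 13.7%) of the 609 HPC-only windows and 11.2% of all windows. TGTGGT stood in 16.0% (13.2% to 19.1%), 19.5% (16.6% to 22.9%) and 16.8%, and GAGGAA in 30.8% (27.2% to 34.6%), 26.8% (23.4% to 30.4%) and 28.3%, in the same order. A match is a run of letters and not a shown binding site.

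Most H3K4me1 sites were common to the cell types, and nearly all of the strongest were. Over the full lists 25.3% of HSC sites (25.1% to 25.5%) were HSC-only and 24.3% of HPC sites (24.1% to 24.5%) were HPC-only. Of the strongest 20000 sites of each list by the authors' −log10 p, 42 were HSC-only (0.210%, 0.155% to 0.284%) and 14 were HPC-only (0.0700%, 0.0417% to 0.117%), a difference of 0.140 percentage points (Newcombe interval 0.0677 to 0.219). This direction turned when at least 50% of a site had to be covered (0.875% HSC-only and 3.03% HPC-only), and with lists of equal length the shares were 0.210% and 0.180%. Among the strongest 50000 the counts were 656 (1.31%) and 642 (1.28%). The share then climbed steadily with rank, through 24.0% of HSC ranks 100001 to 120000 and 32.7% of the same HPC ranks, to 55.1% and 56.1% of the weakest sites. Which cell type had the larger share over the full lists depended on list length: with both lists held to the same number of sites it was 18.0% for HSC and 32.7% for HPC.

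**Figure D1:**
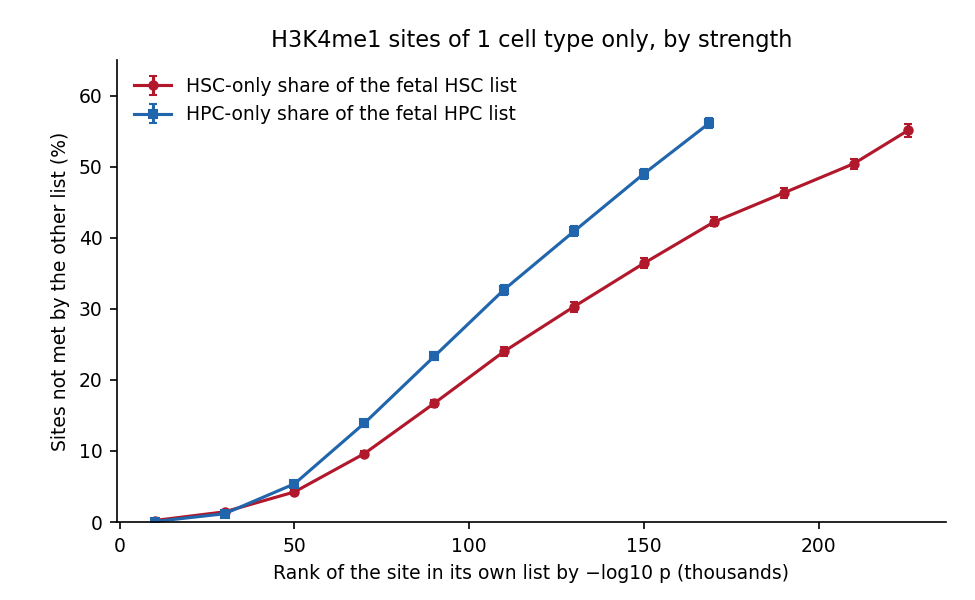
Share of sites not met by the other cell type's list (y axis, %) by rank of the site in its own list (x axis, in units of 1000, strongest at the left). Red circles are the fetal HSC list and blue squares the fetal HPC list in steps of 20000 ranks, and bars are 95% Wilson intervals. Both curves start under 1% and end above 55%.

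Sites of 1 cell type were narrow and weak. HSC-only sites had a median width of 258 bp and a median authors' fold over background of 2.45, against 551 bp and 3.13 for shared HSC sites. HPC-only sites had medians of 359 bp and 2.41, against 813 bp and 3.19. Many lay near a peak of the other list, whether that peak was shared or not. The median gap to the nearest such peak was 1150 bp for HSC-only and 862 bp for HPC-only sites, and 47.1% and 54.1% had one within 1 kb. HPC peaks were also longer and joined what HSC peaks divided, since 26.4% of shared HPC sites met 2 or more HSC peaks and 6.70% of shared HSC sites met 2 or more HPC peaks. By length, the HPC list covered 82.5% of the bases of HSC sites, and the HSC list 72.5% of the bases of HPC sites. A weak site missing from a list cannot be told from one without the mark, and read depth is unknown here.

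Both classes lay mostly away from gene starts. Shares near a start were taken over the sites on chromosomes that had promoter windows. These were 56293 HSC-only and 167225 shared HSC sites, and 41645 HPC-only and 129969 shared HPC sites. HSC-only sites lay within 1 kb of a start in 4.66% of cases (4.49% to 4.83%) against 11.4% of shared HSC sites (11.3% to 11.6%), and HPC-only sites in 6.32% (6.10% to 6.56%) against 13.8% (13.6% to 14.0%). The gap remained among ranks 20001 to 80000, at 3.98% against 13.6% and at 7.29% against 16.3%, though width and strength were not matched within these ranks. Inside gene bodies lay 66.5% of HSC-only sites and 54.0% of HPC-only sites, with 64.5% and 65.1% of the shared sites. On chromosome X the HSC-only and HPC-only shares were both 31.9%, above the 25.2% and 24.1% of the autosomes.

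The sites of 1 fetal cell type were found again more often in the adult cells of the same name. Of all HSC-only sites, 23.7% (23.4% to 24.1%) met an adult HSC peak and 16.3% (16.0% to 16.6%) an adult HPC peak, while shared HSC sites met them in 65.6% and 68.6%. Of all HPC-only sites, 25.2% (24.8% to 25.6%) met an adult HSC peak and 40.8% (40.3% to 41.2%) an adult HPC peak, while shared HPC sites met them in 67.2% and 66.8%. Among the strongest 50000 the contrast was wider. There, 215 HSC-only sites met an adult HSC peak alone and 11 an adult HPC peak alone, and 6 HPC-only sites met an adult HSC peak alone and 278 an adult HPC peak alone. The same counts for shared sites of these ranks were 2781 and 1553 in the HSC list, and 1425 and 2370 in the HPC list. The adult lists come from other libraries, but HSC and HPC libraries had inputs of their own and the use of the inputs in peak calling is not given, so cell type and any handling common to the HSC libraries cannot be told apart.

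**Figure D2:**
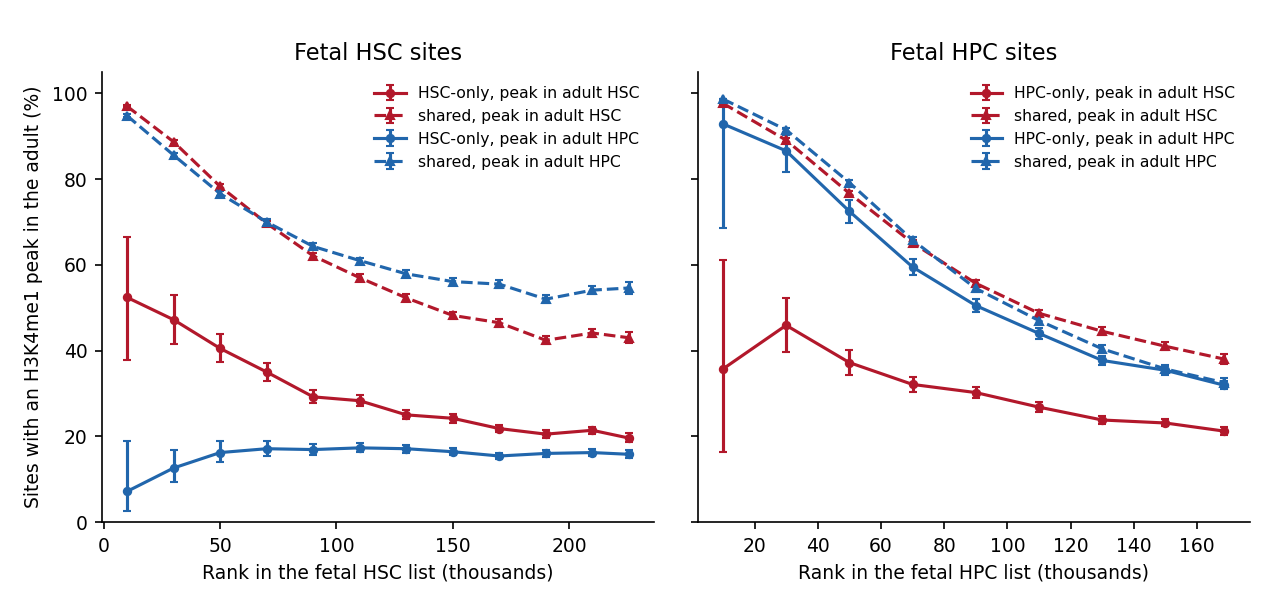
Share of fetal HSC sites (left) and fetal HPC sites (right) that met an H3K4me1 peak of adult HSC (red) or adult HPC (blue), by rank in steps of 20000 (x axis, in units of 1000). Solid lines with circles are sites of 1 fetal cell type, dashed lines with triangles are shared sites, and bars are 95% Wilson intervals. The solid lines separate by adult cell type at every rank, red above blue on the left and blue above red on the right.

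Few of these sites carried H3K27ac in fetal HPC. Neither K27 set was made in HSC, so the acetylation of HSC-only sites in HSC themselves was not measured. A peak of H3K27ac overlapped 3.51% of HSC-only and 3.87% of HPC-only sites, against 21.1% and 24.1% of shared sites. In ranks 20001 to 40000 it was 8.39% (5.70% to 12.2%) of HSC-only against 36.8% of shared HSC sites. It was 13.4% (9.62% to 18.4%) of HPC-only against 37.9% of shared HPC sites. Strength and width were not matched within these ranks, and a wider site meets a peak more easily. The second K27 set overlapped 3.51% (3.37% to 3.67%) of HSC-only sites against 2.22% (2.15% to 2.29%) of shared HSC sites, and 1.84% (1.72% to 1.98%) of HPC-only sites against 2.72% (2.64% to 2.81%) of shared HPC sites. The HSC-only sites with a second K27 peak were most frequent at Magi1 (38 sites) and Arhgef12 (17), genes of a membrane scaffold and of a guanine nucleotide exchange factor, and they stood also at the developmental regulators Tbx15 (11) and Meis2 (10).

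The 42 strongest HSC-only sites were divided by width, at a limit of 350 bp set after seeing them. Of 32 sites of 350 bp or more, 21 met an adult HSC peak, 3 an adult HPC peak and 2 a fetal HPC H3K27ac peak. Of 10 narrower sites, 1 met an adult HSC peak, 0 an adult HPC peak and 7 an H3K27ac peak. The narrow kind held the site of highest fold, 208 bp in Stxbp5l on chromosome 16 (fold 9.04), the 246 bp site in Acacb (fold 8.22), which encodes an acetyl-CoA carboxylase, and a 327 bp site 14808 bp from Hbs1l (fold 6.62). A further 3 narrow sites near the start of chromosome 9 and 1 of chromosome 16 had folds of 1.22 to 1.85, below the median of the list, in spite of their rank. The widths and folds of these sites stand beside their rank here, and what gave rise to them was not tested.

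The wide kind was led by Ctnnal1, whose product alpha-catulin marks HSC in a reporter mouse. Its 3 sites lay in the gene body at chr4:56852693-56855739, chr4:56855986-56857127 and chr4:56857678-56859142 (mm10), with folds of 4.97, 5.55 and 5.50. All 3 met an adult HSC peak and none an adult HPC peak. No other coding gene had more than 1 site among the 42. Single wide sites of this rank lay in Foxp1 (fold 5.21, chr6:98975969-98977224), which encodes a forkhead factor, in Vdr (5.70), the vitamin D receptor, in Bmpr2 (4.95), a BMP receptor, and in Mecom (5.02, chr3:30156643-30157057). Those in Foxp1, Vdr and Bmpr2 met adult HSC and not adult HPC, and the one in Mecom met neither. Dkk2 (5.94) and Asz1 (5.70) had wide sites met by neither adult list, and a site 69050 bp from Fam216b (6.47) met adult HSC alone. The site 1653 bp from Sdcbp2 (5.60) and the one in Pdlim1 (5.31) were met by neither.

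The 14 strongest HPC-only sites were found again in the adult more often, with 13 of 14 in adult HPC and 5 of 14 in adult HSC. The strongest, at chr12:115190382-115196336 (fold 6.36), lay among the V segments of the immunoglobulin heavy chain locus Igh, as did those at chr12:115256278-115259758 (5.72) and chr12:115157765-115159094 (5.33). A site 6238 bp from Cd244a at chr1:171551426-171552479 had a fold of 5.41. Cd244a encodes a SLAM family receptor (2B4) whose ligand is CD48, and both proteins are used to tell progenitors from HSC. The site in Tspoap1 at chr11:87784055-87784636 (fold 3.61) lay within 20 kb of Mpo, the myeloperoxidase gene of granulocytes. The sites nearest to Mapre2 (6.24), Arhgap26 (5.72), Creb1 (4.89), Coq2 (5.09) and Prkcb (4.79), the gene of protein kinase C beta, met adult HPC and not adult HSC. Those nearest to Tex44 and Klc4 (both 5.05) met both adult lists, that near Gm3558 (4.74) adult HPC alone, and the 189 bp site in Dmd (2.78, below the list's median) neither.

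The Igh locus (chr12:113258768-116009954) had more bases under peaks in HPC than in HSC. It held 24 fetal HSC sites with a summed width of 14.1 kb, of which 1 was HSC-only. It held 142 fetal HPC sites with a summed width of 131 kb, of which 129 (90.8%) were HPC-only. Of these 129 sites, 121 met an adult HPC peak and 43 an adult HSC peak, and the adult lists held 227 sites (HPC) and 62 sites (HSC) there. Runs of HPC-only sites with no HSC peak between them reached 36, 31, 20 and 17 sites in the locus, and the longest run elsewhere had 19, next to Phf14 and Thsd7a. The V, D and J segments of this locus are joined in B-lineage cells. Across all 12 B cell markers of the fixed list, the HSC list held 102 sites (33 HSC-only, 32.4%, 24.1% to 41.9%). The HPC list held 83 (31 HPC-only, 37.3%, 27.7% to 48.1%), and none of the 12 was without a site in either. The first interval covers the 25.3% of all HSC sites, and the second lies above the 24.3% of all HPC sites. Without the 2 members with the most HSC-only sites the HSC-only share was 24.4%. Without the 2 with the most HPC-only sites the HPC-only share was 25.0% (14.2% to 40.2%). The 4 markers with 5 or more sites in both lists split 2 against 2, with a median HSC-only minus HPC-only share of 3.42 points. The part of B-lineage cells in the Igh result was not tested.

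Next, all sites were assigned to the nearest coding gene body within 100 kb. Of 8778 genes with 5 or more sites in both lists, the HSC-only share exceeded the HPC-only share at 4051 (46.1%) and the reverse held at 4269 (48.6%), with a median difference of 0 points. Any list of genes is read against these values and against the 25.3% and 24.3% of all sites. Counts of sites met in the adult are read against the shares of their class. These were 23.7% (adult HSC) and 16.3% (adult HPC) of all HSC-only sites, and 25.2% and 40.8% of all HPC-only sites. Sites at 1 gene share their surroundings and are not replicates.

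An HSC regulator carried more HSC-only sites than any other coding gene. Mecom, which encodes the zinc finger factor EVI1 needed for HSC renewal, had 351 HSC sites (summed width 374 kb), of which 166 were HSC-only. It had 217 HPC sites (summed width 247 kb), of which 4 were HPC-only. Of the 166 sites, 16 met an adult HSC peak and 2 an adult HPC peak, a smaller part than the 23.7% and 16.3% of all HSC-only sites.

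The rest of the HSC identity and quiescence list leaned the same way at most members. Prdm16, a regulator of HSC maintenance, had 53 of 122 sites HSC-only and 2 of 61 HPC-only. Mllt3, a reader of acylated histones that supports HSC renewal, had 50 of 138 and 6 of 133. The values were 27 of 46 and 1 of 18 at Neo1, a netrin receptor of dormant HSC, 19 of 33 and 0 of 16 at Tek, the angiopoietin receptor, and 13 of 37 and 0 of 17 at Fgd5, an HSC reporter gene. Ctnnal1 had 10 of 12 and 0 of 4, and Angpt1, the ligand of Tek, 30 of 155 and 7 of 117. Members that leaned the other way were Runx1 (15 of 158 and 26 of 111), Foxo3 (5 of 77 and 21 of 60), Kit (12 of 119 and 19 of 87), Lmo2 (4 of 48 and 10 of 41) and Hmga2 (9 of 80 and 17 of 64), in the same order of HSC-only and HPC-only. Over all 39 members, 30.5% of HSC sites were HSC-only (28.6% to 32.5%) and 12.9% of HPC sites HPC-only (11.3% to 14.7%). Of 34 members with 5 sites in both lists, the HSC-only share was higher at 22 and the HPC-only share at 12, with a median difference of 9.50 points. Without the 2 members with the most HSC-only sites the HSC-only share was 23.1%, below that of all sites, the HPC-only share was 15.4%, and the split was 20 to 12. Of the list's 661 HSC-only sites, 220 met adult HSC and 68 adult HPC.

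**Figure D3:**
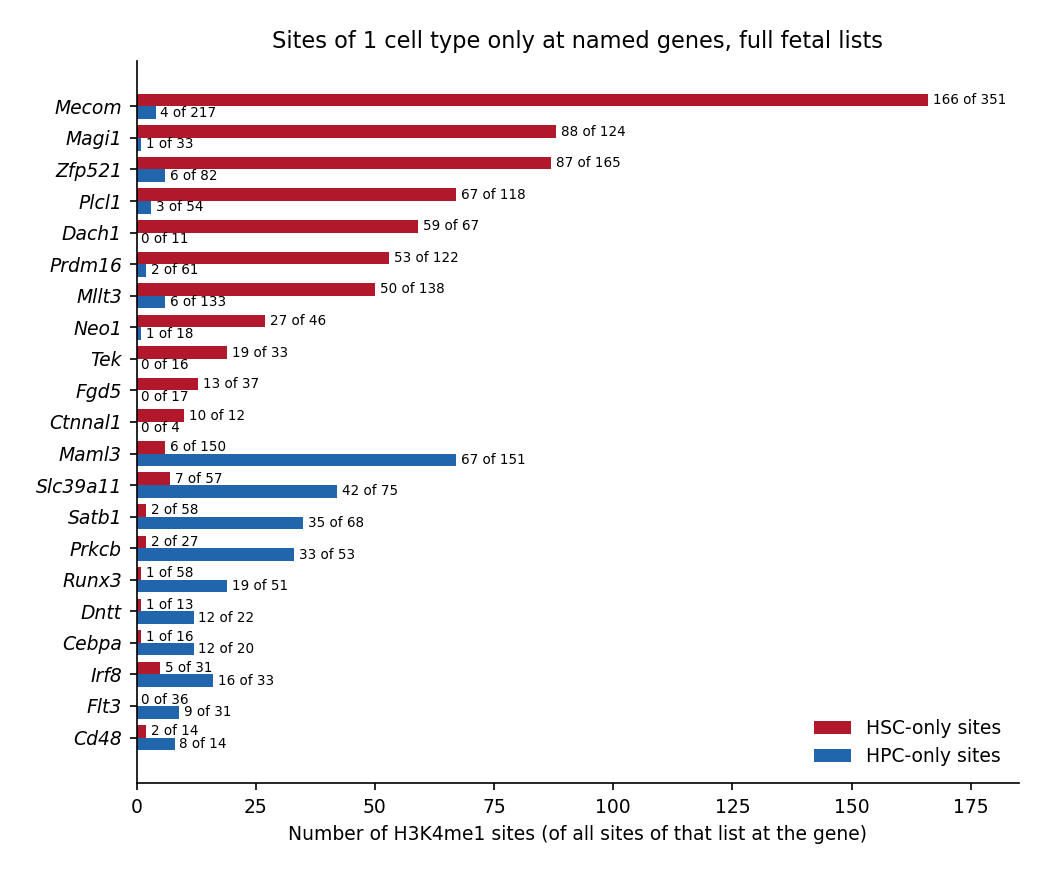
Number of HSC-only (red) and HPC-only (blue) sites at named genes in the full fetal lists, with the count of all sites of that cell type's list at the gene written beside each bar. Among the genes drawn, Mecom (166 of 351) stands highest for HSC-only sites and Maml3 (67 of 151) for HPC-only sites.

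Lymphoid genes held HPC-only sites. Satb1, a chromatin organiser of lymphoid progenitors, had 2 of 58 HSC sites HSC-only and 35 of 68 HPC sites HPC-only. Of the 35, 10 met adult HPC and 0 adult HSC, a smaller part than the 40.8% and 25.2% of all HPC-only sites. Dntt, which encodes the terminal transferase that adds bases at V(D)J joints, had 1 of 13 and 12 of 22, with all 12 in adult HPC and 4 in adult HSC. Its best HPC-only site, at chr19:41037706-41039076, had a fold of 4.45. At Flt3, the receptor of multipotent and lymphoid-primed progenitors, the counts were 0 of 36 and 9 of 31, with 8 of the 9 in adult HPC and 1 in adult HSC. At Ccr9, a thymus homing receptor, they were 0 of 5 and 8 of 12, all 8 being in adult HPC and 2 in adult HSC. Il12a (4 of 30 and 11 of 26), Id2 (2 of 38 and 12 of 39) and Notch1 (1 of 42 and 7 of 30) leaned the same way. Mef2c (23 of 89 and 6 of 57), Gata3 (8 of 27 and 3 of 22) and Pax5 (6 of 13 and 2 of 7) leaned towards HSC-only. Over 28 matched members the shares were 15.2% (12.9% to 17.7%) HSC-only and 28.8% (25.6% to 32.4%) HPC-only, and of 20 members with enough sites 4 had the higher HSC-only and 16 the higher HPC-only share (median difference −19.1 points). Without the 2 members with the most HPC-only sites 126 of 466 HPC sites were HPC-only (23.2% to 31.2%), an interval that covers the share of all sites, and the split was 4 to 14.

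Myeloid genes also held HPC-only sites. Cebpa, the factor that starts the granulocyte and monocyte fate, had 1 of 16 HSC sites HSC-only and 12 of 20 HPC sites HPC-only, of which 11 met adult HPC and 6 adult HSC. Irf8, the monocyte and dendritic cell factor, had 5 of 31 and 16 of 33. Surface receptors did likewise, in that Itgam (CD11b) had 1 of 21 and 9 of 19, Csf3r (G-CSF receptor) 2 of 9 and 6 of 10, Cd33 0 of 7 and 5 of 7, and Ccr2 0 of 8 and 4 of 9. Mpo had 0 of 5 and 1 of 4. Spi1, the gene of PU.1, had 2 of 23 and 1 of 17, and Cebpe had none of its 8 and 7 sites outside the other list. Ctsg, Ly6g, S100a9 and Camp, genes of maturing granulocytes, had 0 sites in both lists. Over the 33 members the shares were 11.1% (8.17% to 14.9%) HSC-only and 34.3% (29.2% to 39.9%) HPC-only. Of 17 members with enough sites, 1 had the higher HSC-only and 14 the higher HPC-only share (median difference −25.6 points). Of the list's 102 HPC-only sites, 53 met adult HPC and 26 adult HSC. Its 37 HSC-only sites also met adult HPC more often (18) than adult HSC (12), unlike HSC-only sites as a whole.

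**Figure D4:**
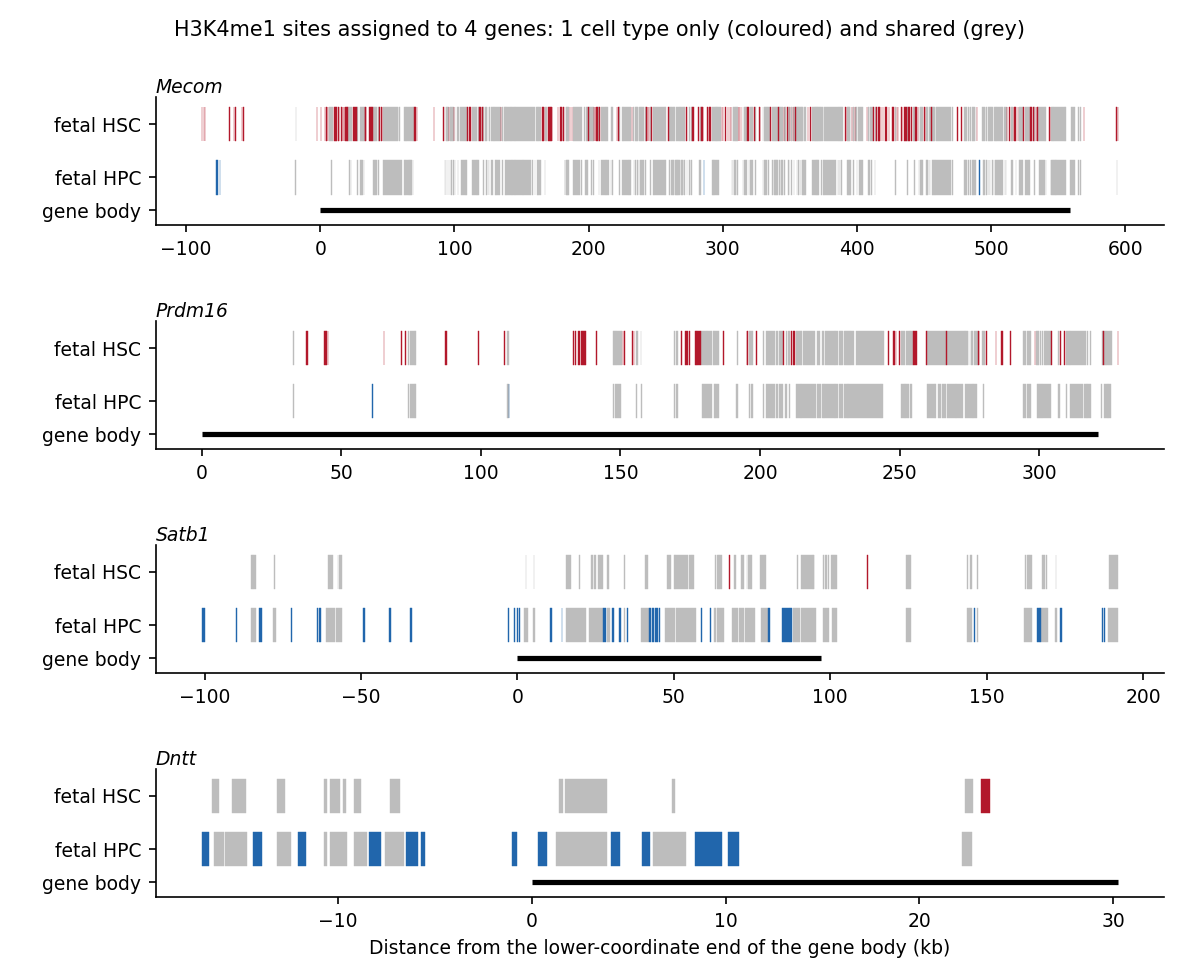
H3K4me1 sites assigned to Mecom, Prdm16, Satb1 and Dntt, by distance from the lower-coordinate end of the gene body (x axis, kb). Coloured blocks are HSC-only (red) and HPC-only (blue) sites, grey blocks are shared sites and the black bar is the gene body. Most HSC-only sites at Mecom and Prdm16 lie among shared ones in the gene body, though some at Mecom lie outside it. No site at Prdm16 lies below 32.7 kb. HPC-only sites at Satb1 and Dntt lie both in and outside the gene.

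Erythroid genes had a lower HSC-only share than all sites, and in the platelet list sites and members pointed in different directions. Over 24 erythroid genes the shares were 14.7% (11.3% to 18.9%) HSC-only and 20.1% (15.5% to 25.6%) HPC-only. The first interval lies below the 25.3% of all HSC sites, and the second covers the 24.3% of all HPC sites. Of 12 members, 4 were higher for HSC-only and 8 for HPC-only (median −8.70 points). Zfpm1, the GATA1 cofactor FOG1, had 6 of 50 and 1 of 28. Over 20 megakaryocyte and platelet genes the shares were 30.9% and 15.2%, yet 5 of 14 members were higher for HSC-only and 8 for HPC-only, and the median was −5.01 points. Without the 2 members with the most HSC-only sites the shares were 10.8% and 18.1%, and 1 of these 2 is also among the 2 left out of the HSC list above. Vwf, the von Willebrand factor gene also expressed by platelet-biased HSC, had 16 of 48 HSC sites HSC-only and 6 of 36 HPC sites HPC-only, and 10 of the 16 met adult HSC and 3 adult HPC. Of 17 mast cell, basophil and eosinophil genes, 9 had enough sites and 8 of these leaned to HPC-only. The shares were 13.5% (10.2% to 17.8%) HSC-only and 27.9% (22.7% to 33.8%) HPC-only. Here too the first interval lies below the share of all HSC sites and the second covers that of all HPC sites. The 11 genes of a fetal stem cell programme did not lean (18.0% and 22.5%, 5 against 5 members), and Lin28b had 8 of 25 and 2 of 17.

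Cell cycle genes had the higher HPC-only share, much of it at a pair of members, with 16.2% (13.2% to 19.7%) HSC-only and 31.1% (26.8% to 35.7%) HPC-only over 28 members, and 7 against 12 of 19 members (median −22.2 points). Without Cdk6 and Ccnd1 the HPC-only share was 27.2% (22.4% to 32.6%), which covers the 24.3% of all sites, the split was 7 to 10 and the median −7.76 points. Cdk6, the kinase that lets HSC leave quiescence, had 8 of 90 and 33 of 81, with 20 of the 33 in adult HPC and 4 in adult HSC. Ccnd1 (3 of 39 and 16 of 41) and Ccnd2 (1 of 23 and 11 of 26), both cyclins D, and Mki67 (3 of 21 and 10 of 26) followed it, while Rb1, the gene of the brake on the cycle, had 22 of 66 and 8 of 45. The 27 stem cell cytokine receptors and pathway genes had 14.7% and 22.5%, with 7 against 15 of 22 members. Housekeeping genes had 18.8% and 19.4%, with 5 against 7 of 14 members and a median of −3.50 points.

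Hox genes and regulators of other tissues held HSC-only sites. In Hox clusters A and B, 39.2% of HSC sites were HSC-only (32.6% to 46.2%) and 10.3% of HPC sites HPC-only (6.13% to 16.9%), and all 11 members with enough sites had the higher HSC-only share (median 25.3 points). Hoxb3 had 17 of 33 and 0 of 15, and Hoxb6 7 of 13 and 1 of 5, with one of its sites (fold 5.12) among the strongest 20000. Of 40 silent developmental regulators, 32 had enough sites and 29 of these had the higher HSC-only share, with 40.7% (36.6% to 44.8%) HSC-only and 17.9% (14.2% to 22.3%) HPC-only over the list. Foxa2, an endoderm factor, had 10 of 13 and 0 of 3, Sox2 11 of 15 and 3 of 7, and Sox1, of the neural plate, 12 of 20 and 1 of 7. The 222 HSC-only sites of this list differed from those of the HSC list in their other readouts: 132 (59.5%) met a second K27 peak and 0 an H3K27ac peak in fetal HPC, and 133 met adult HSC and 107 adult HPC. Of the 661 HSC-only sites at HSC identity genes, 4 met a second K27 peak and 21 an H3K27ac peak. The second K27 overlap was not particular to HSC-only sites of the silent list. Of its 61 HPC-only sites, 19 (31.1%) met a second K27 peak and 0 an H3K27ac peak, while 31 met adult HSC and 34 adult HPC. Of the 76 HSC-only sites at Hox genes, 26 (34.2%) met a second K27 peak and 2 an H3K27ac peak.

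**Figure D5:**
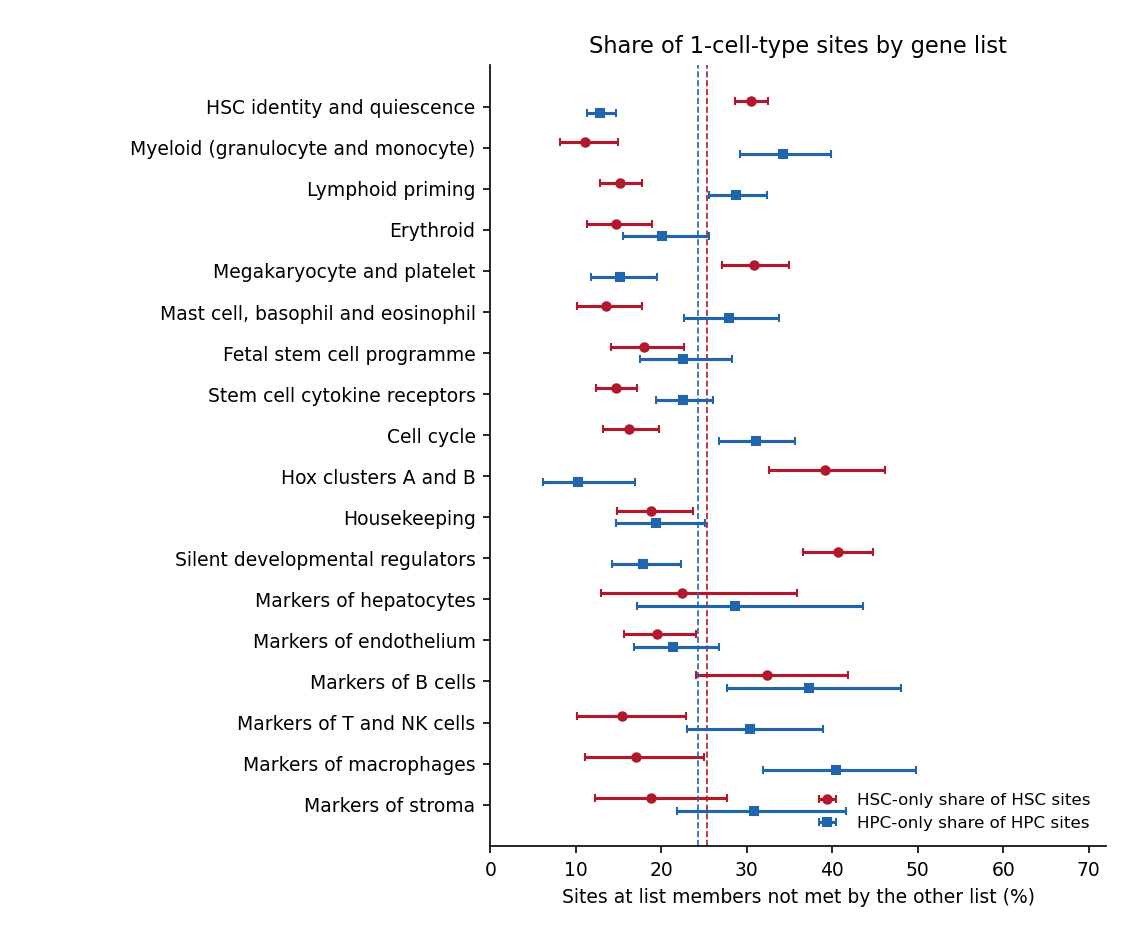
HSC-only share of HSC sites (red circles) and HPC-only share of HPC sites (blue squares) at the members of each gene list (x axis, %), with 95% Wilson intervals. Dashed lines give the shares of all sites (25.3% and 24.3%). Red intervals lie wholly to the right of 25.3% for HSC identity, megakaryocyte, Hox and silent developmental genes. Blue intervals lie wholly to the right of 24.3% for myeloid, lymphoid, cell cycle, B cell and macrophage genes.

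Markers of other cells were set beside these lists. Some genes stand in more than 1 list, such as Tek (HSC identity and endothelium) and Pax5 (lymphoid and B cells). The lists are therefore not independent of each other. Hepatocyte markers held few sites, 49 in the HSC and 42 in the HPC list over 16 genes, with 4 and 5 genes at 0, Fgb, Fga and Cyp3a11 among them. Endothelial markers had 19.5% HSC-only and 21.4% HPC-only, T and NK cell markers 15.4% and 30.4%, and stromal markers 18.8% and 30.9%. The HPC-only intervals of the T and NK cell markers (23.0% to 38.9%) and the stromal markers (21.9% to 41.6%) cover the 24.3% of all HPC sites. Without Pdgfra and Pdgfrb, receptors of platelet-derived growth factors, the stromal HPC-only share was 12.5% (5.46% to 26.1%). Macrophage markers had 17.0% (11.1% to 25.0%) and 40.5% (31.9% to 49.8%), and Adgre1, the gene of the macrophage antigen F4/80, had 0 of 4 and 4 of 7. The macrophage shares lie in the direction of the myeloid list, and the part of mature macrophages or T cells in the HPC-only sites was not tested. By member, more HSC identity genes had the higher HSC-only share (22 against 12). More myeloid (14 against 1) and lymphoid genes (16 against 4) had the higher HPC-only share. Silent developmental regulators (29 against 3) and Hox genes (11 against 0) split further towards HSC-only than HSC identity genes. These splits are therefore not particular to the labelled cell types and do not check the labels.

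Outside the lists, a few genes stood out, picked with their values in view. Dach1, which encodes a nuclear corepressor, had 59 of 67 HSC sites HSC-only and 0 of 11 HPC sites HPC-only, and held the longest HSC-only run, 32 sites over chr14:98049816-98163736, of which 5 met adult HSC and 1 adult HPC. Magi1 had 88 of 124 and 1 of 33, Arhgef12 24 of 28 and 1 of 6, Plcl1 67 of 118 and 3 of 54, and Zfp521, a zinc finger gene expressed in HSC, 87 of 165 and 6 of 82. On the HPC side, Maml3, a coactivator of Notch, had 6 of 150 and 67 of 151 and the highest HPC-only count of all coding genes. Slc39a11, a zinc transporter gene, had 7 of 57 and 42 of 75, and Ptger2, the prostaglandin E2 receptor EP2, 0 of 12 and 13 of 19, of which 11 met adult HPC and 2 adult HSC. Cd48 had 2 of 14 and 8 of 14, with 3 of the 8 among the strongest 50000 and 4 in adult HPC against 1 in adult HSC. Of 34367 HSC-only runs 1424 had 5 or more sites, and of 30333 HPC-only runs 388 had. The HSC-only sites were the narrower ones, with medians of 258 bp against 359 bp.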

How the data were processed

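H3K4me1 peak lists of fetal HSC and HPC were compared. Per the submitters' processing notes, the steps used Novoalign and MACS2 and the build mm10 (GRCm38). Their versions, the threshold, the filter and the use of the inputs are unstated. The authors deposited 1 pooled narrowPeak list per group with a fold (ratio) over background and −log10 p and −log10 q per peak, and these ranked or filtered sites within a list only. Of 8 lists, 6 were used. Read depth is unknown, so precision rests on site counts alone.

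Overlaps, Wilson and Newcombe intervals (95%) and gene assignment (RefSeq table, GRCm38.p6, gene bodies without strand, so exons and introns were not assigned) were computed in Python 3.11.15 with pandas 2.3.3, numpy 2.4.6 and scipy 1.17.1, and the interval code was tested on simulated data. The 18 gene lists hold 369 different names, 2 unmatched. Members and lists were chosen with earlier results of these data known. Named genes were list members, up to 10 coding genes per direction with most sites of 1 cell type among the strongest 20000, and genes of the 5 strongest sites with a fold above the list's median. Members of the cell cycle, Hox, silent, cytokine receptor, fetal and macrophage lists were named after their values were seen. Some genes are not reported here. Alternatives changed the overlap, merging, list length, thresholds, ranks and chromosomes.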

Additional observations from a re-analysis of the deposited data

How the results depend on the processing

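The shares over the full lists moved with every alternative except the autosomes alone. For HSC-only and then HPC-only sites, the share was 29.7% and 36.2% when at least 50% of a site had to be covered, 13.4% and 11.1% when a peak within 1 kb counted as shared, and 24.9% and 18.1% when peaks within 1 kb were merged. It was 18.0% and 32.7% with lists of equal length, 19.99% and 28.5% at a −log10 q of at least 5, 9.16% and 6.70% for sites at or above their list's median fold, and 21.1% and 27.1% for sites of at least 200 bp. The HPC-only share therefore exceeded the HSC-only share under 4 of these alternatives and lay below it under the others.

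Of the strongest 20000, the shares were 0.875% and 3.03% with at least 50% covered, which turned the direction, 0.305% and 0.150% with merged peaks and 0.300% and 0.250% at the stricter q. Of the strongest 10000 they were 0.110% and 0.0300%, and of the strongest 50000 1.31% and 1.28%. The HSC-only share was 0.150% with peaks within 1 kb counted as shared, and the HPC-only share 0.180% with lists of equal length. The remaining alternatives stayed inside the counting interval.

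The adult HSC share minus the adult HPC share of HSC-only sites was 7.47 points over all ranks. In steps of 20000 ranks it was 45.2, 34.6, 24.3, 17.9, 12.2, 10.9, 7.99, 7.77, 6.40, 4.55, 5.17 and 3.80 points. For HPC-only sites it was −15.6 points over all ranks and −57.1, −40.7, −35.3, −27.4, −20.3, −17.2, −13.9, −12.3 and −10.7 points by step, so the sign held in every step.

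Of 36 counts at list members among the strongest 20000, 34 were 0, so their alternatives show nothing of stability. The HSC-only count of 4 at HSC identity genes became 25 among the strongest 50000, and the count of 1 at Hox genes became 2. In 4 alternatives added after seeing the data, the shares of the HSC identity, myeloid, lymphoid, cell cycle, Hox and silent developmental lists stayed on their side of the share of all sites. The HSC-only share of the megakaryocyte list, at 19.9%, fell below the 24.9% of all sites with merged peaks. Lists that also changed side were the hepatocyte markers (HSC-only in 3 of 4 alternatives, HPC-only in 1), the fetal stem cell programme (HPC-only in 3) and the stromal markers and cytokine receptors (HPC-only in 1 each). No paired analysis was possible because each group's libraries were pooled into 1 list, and for the same reason no library could be left out. Depth was unknown, and a weak site missing from a list cannot be told from one without the mark.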

Other observations

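The narrow sites near the start of chromosome 9 (3) and of chromosome 16 (1) ranked among the strongest 20000 of the HSC list by −log10 p, at fold values of 1.22, 1.43, 1.69 and 1.85. The first of them held rank 1 of the HSC list with a −log10 p of 201 and a width of 157 bp, and the nearest HPC peak lay 310940 bp away. None of these 4 met an adult H3K4me1 peak, and 1 met a fetal HPC H3K27ac peak. They lie in no coding gene.

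Some genes without a place in the fixed lists also held many HPC-only sites among the strongest 50000, and they were picked with their values in view. Mrvi1 held 4 of these sites, and Tshz2, Gucy2c, Ptger2 and Tcerg1l held 3 each. At Gucy2c, which encodes a guanylate cyclase receptor, 14 of 28 HPC sites were HPC-only and 0 of 15 HSC sites HSC-only. At Tcerg1l the counts were 19 of 26 and 1 of 11, with 17 of the 19 in adult HPC and 10 in adult HSC. Adam6b, which lies inside the Igh locus, had 18 of 25 and 1 of 10. In the HSC list, Mettl25 had 29 of 34 sites HSC-only, and 0 of the 29 met either adult list.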
